A study of Mus musculus and Homo sapiens
Mus musculus with 16 samples.

Results

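Very long interactions were taken as the listed interactions whose 2 ends lay 700 kb or more apart, measured between the starts of their 10 kb bins. Of the 58543 distinct bin pairs listed in at least 1 of 4 libraries, 6490 met this distance. Of the others, 45153 lay 110 to 690 kb apart and 6900 lay 20 to 100 kb apart. The rule used distance alone and no read count, and the lists themselves ended at 1000 kb. The edge of the class was not a gap in the data: 690 kb pairs numbered 197 and 179 in the E16.5 libraries and 91 and 71 in the E12.5 libraries, while 700 kb pairs numbered 190 and 167 at E16.5 and 83 and 72 at E12.5, with a median of 14 read pairs at both distances.

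The libraries were H3K4me3 PLAC-seq of mouse fetal forebrain, 2 from embryonic stage E16.5 and 2 from E12.5. Their sample characteristics give the tissue as forebrain and the stage, and name no strain, genotype, sex or treatment. The protocol text attached to E12.5 replicate 1 describes adult cortex, whereas its title and stage label give E12.5, so counts of calls, and the calls on genes and contacts that change, are also given without that library. The labels do not say whether replicates came from separate litters, so the spread between them may be technical.

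PLAC-seq cuts and religates crosslinked chromatin and uses an antibody against a histone mark to pull down marked ligated fragments. H3K4me3 marks active and poised promoters, and it is usually strongest over CpG-rich promoters. A listed interaction therefore joins a marked bin to another bin, and in the developing forebrain such contacts can tie the promoter of a regulatory gene to sequence far across a stretch with few genes. All 15 forebrain markers examined had listed interactions of some distance, 310 and 270 in sum in the E16.5 libraries and 236 and 232 in the E12.5 libraries. Of 25 markers of microglia, endothelium, blood and meninges, 14 had no listed interaction at any distance (Cx3cr1, Csf1r, P2ry12, Pecam1, Kdr, Flt1, Tek, Hbb-bs, Hbb-bt, Hba-a1, Col3a1, Twist1, Lum and Dcn), and the sum over the list was 36 and 15 at E16.5 and 29 and 29 at E12.5.

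The promoters below belong to gene bins that the results turn on, and are shown for their CpG content, since the assay selects for a mark that follows it. Each is the RefSeq promoter window on GRCm38.p6, from 250 bases before to 50 bases after the gene start, in the direction of transcription, with every CpG in capitals. Sox11 (chr12:27342669-27342968, minus strand), Pou3f3 (chr1:42695518-42695817, plus strand) and Emx2 (chr19:59458440-59458739, plus strand) encode transcription factors whose bins carried some of the largest numbers of very long interactions in all 4 libraries. Prdm8 (chr5:98180619-98180918, plus strand) encodes a transcriptional repressor and Arpp21 (chr9:112233673-112233972, minus strand) a neuronal phosphoprotein, and both had their very long interactions almost wholly at E16.5. Ebf3 (chr7:137314396-137314695, minus strand) and Sox2 (chr3:34649745-34650044, plus strand) encode transcription factors with fewer very long interactions at E16.5 than at E12.5.
Sox11: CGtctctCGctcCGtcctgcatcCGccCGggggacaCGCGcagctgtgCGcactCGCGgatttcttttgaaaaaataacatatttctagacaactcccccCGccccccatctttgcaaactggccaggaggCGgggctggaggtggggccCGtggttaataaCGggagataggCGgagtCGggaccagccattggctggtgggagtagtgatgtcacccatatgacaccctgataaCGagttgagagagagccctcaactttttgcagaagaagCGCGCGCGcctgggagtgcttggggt
Pou3f3: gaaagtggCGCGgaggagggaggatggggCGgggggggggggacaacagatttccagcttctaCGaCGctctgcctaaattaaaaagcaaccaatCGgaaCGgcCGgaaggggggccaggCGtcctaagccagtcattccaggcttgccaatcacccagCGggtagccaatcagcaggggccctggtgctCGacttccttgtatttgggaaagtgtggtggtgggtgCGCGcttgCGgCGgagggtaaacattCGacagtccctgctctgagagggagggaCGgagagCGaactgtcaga
Emx2: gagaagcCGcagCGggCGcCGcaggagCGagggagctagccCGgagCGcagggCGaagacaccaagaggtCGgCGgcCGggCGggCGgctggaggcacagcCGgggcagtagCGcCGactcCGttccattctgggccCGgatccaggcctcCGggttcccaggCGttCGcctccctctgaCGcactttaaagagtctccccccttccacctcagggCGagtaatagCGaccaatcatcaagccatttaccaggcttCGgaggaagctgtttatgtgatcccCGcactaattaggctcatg
Prdm8: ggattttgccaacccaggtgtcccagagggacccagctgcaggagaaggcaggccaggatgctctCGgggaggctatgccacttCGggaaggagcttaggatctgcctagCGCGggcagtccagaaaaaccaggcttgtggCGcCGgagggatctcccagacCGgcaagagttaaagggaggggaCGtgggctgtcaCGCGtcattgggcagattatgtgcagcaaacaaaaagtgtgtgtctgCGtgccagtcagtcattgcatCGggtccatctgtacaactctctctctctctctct
Arpp21: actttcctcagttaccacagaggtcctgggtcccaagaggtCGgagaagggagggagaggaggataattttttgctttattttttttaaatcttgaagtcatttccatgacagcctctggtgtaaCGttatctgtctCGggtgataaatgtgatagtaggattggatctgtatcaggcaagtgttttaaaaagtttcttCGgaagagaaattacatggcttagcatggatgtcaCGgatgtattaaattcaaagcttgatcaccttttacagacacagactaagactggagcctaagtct
Ebf3: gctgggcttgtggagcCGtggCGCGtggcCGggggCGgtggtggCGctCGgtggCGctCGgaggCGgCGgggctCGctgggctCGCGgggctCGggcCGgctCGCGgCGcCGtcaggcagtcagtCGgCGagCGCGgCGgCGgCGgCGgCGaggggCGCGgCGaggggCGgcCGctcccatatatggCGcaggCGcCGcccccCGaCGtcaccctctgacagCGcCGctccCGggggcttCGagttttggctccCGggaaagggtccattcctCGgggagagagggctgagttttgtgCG
Sox2: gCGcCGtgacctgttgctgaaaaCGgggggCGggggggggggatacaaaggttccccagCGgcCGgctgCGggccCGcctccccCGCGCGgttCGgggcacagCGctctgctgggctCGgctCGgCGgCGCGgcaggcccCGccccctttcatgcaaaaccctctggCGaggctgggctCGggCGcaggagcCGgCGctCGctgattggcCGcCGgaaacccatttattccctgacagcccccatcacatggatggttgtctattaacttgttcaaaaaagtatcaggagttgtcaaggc
These windows held 21 CpGs for Sox11, 18 for Pou3f3, 26 for Emx2, 12 for Prdm8, 5 for Arpp21, 46 for Ebf3 and 27 for Sox2. A second annotated Arpp21 start (chr9:112233263-112233562) held 1. The promoters of gene bins with a very long interaction had a median of 21 CpGs per 300 bases (914 promoters), against 20 for gene bins with listed interactions but none this long (7074 promoters) and 7 for gene bins with no listed interaction (12097 promoters). The very long class thus had a CpG content close to that of shorter contacts, and both lay above bins without any.

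Very long interactions were more numerous at E16.5 than at E12.5. The E16.5 libraries listed 4393 and 4120 of them, against 1743 and 1479 in the E12.5 libraries, so that the groups did not overlap. The means were 4256.5 ± 193 at E16.5 and 1611 ± 187 at E12.5 (SD, n = 2 each), a ratio of 2.64. The exact permutation test over 6 assignments of libraries to stages gave p = 0.333, two-sided, which is the smallest p that 2 libraries against 2 allow. Most of this ratio moved with the length of the lists: the E16.5 libraries listed 35291 and 36794 interactions in all and the E12.5 libraries 18413 and 16075, and with every list shortened to the 16075 interactions of lowest FDR the ratio was 1.31. Sequencing depth is unknown, and its part in the numbers was not tested.

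Relative to the other distances the very long class was also larger at E16.5. It made up 12.4% and 11.2% of listed interactions in the E16.5 libraries and 9.47% and 9.20% in the E12.5 libraries, a difference of 2.49 percentage points (exact permutation p = 0.333, n = 2 each). The ratio of E16.5 to E12.5 numbers was 1.70 for contacts up to 100 kb, 2.09 for contacts of 110 to 690 kb and 2.64 for the very long class, so it was higher with each step in distance. In shares, contacts up to 100 kb went the other way, with 9.15% and 11.2% of listed interactions at E16.5 and 12.3% and 12.8% at E12.5. The share of the very long class differed in the same direction on lists of equal length, by 2.94 percentage points.

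**Figure D1:**
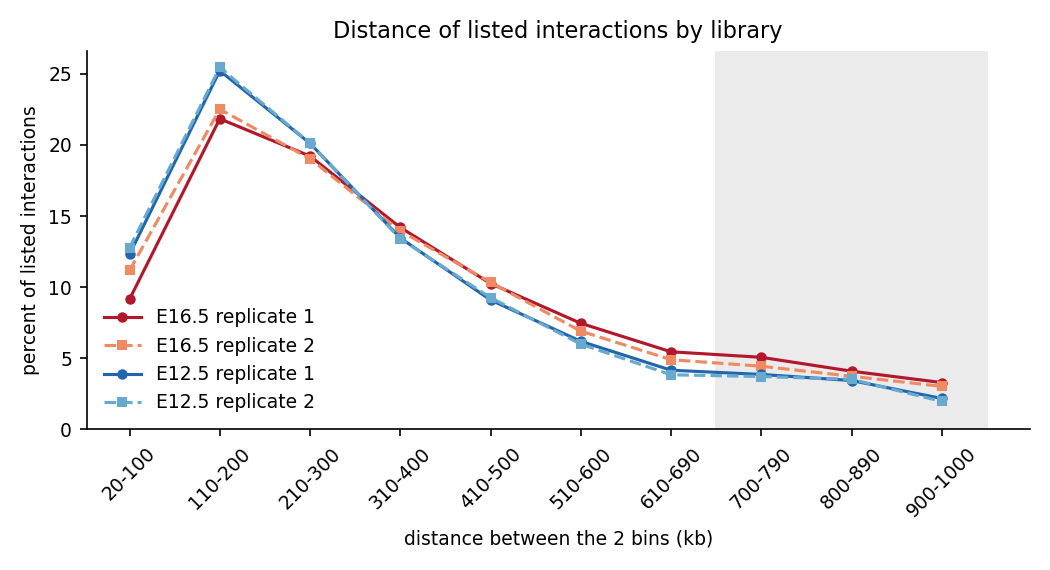
The share of each library's listed interactions (y axis, percent) is plotted against the distance between the bins (x axis, kb), with 1 line per library and the very long class shaded. From 310 kb upward both E16.5 lines lie above both E12.5 lines, and in the 3 shortest distance groups they lie below.

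A single very long interaction rested on few read pairs at either stage. The median was 13 read pairs in each of the 4 libraries, against 19 or 20 over all distances, and the highest counts were 349 and 184 at E16.5 and 93 and 75 at E12.5. The observed count was a median of 5.43 and 5.66 times the authors' expected count at E16.5 and 5.66 and 5.78 times at E12.5, while it was 3.96 to 4.03 times over all distances. The medians of the 2 stages differed by -0.18 (E16.5 minus E12.5), about the spread between replicates (exact permutation p = 0.333). On lists of equal length this difference had the opposite sign, at 1.33. Very long interactions held 8.40% and 7.14% of the read pairs of all listed interactions at E16.5 and 6.12% and 5.62% at E12.5.

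Very long interactions came in patches of touching bins and not as single points. The 6490 bin pairs formed 1484 patches of touching pairs, of which 417 were a single pair and the largest held 111 pairs. That largest patch joined the Pou3f3 bin and its neighbours to a stretch below it, with 85 and 84 pairs at E16.5 and 67 and 69 at E12.5. Next came a patch at Dlx5 and Dlx6, homeobox genes of GABAergic neurons, with 68 and 55 pairs at E16.5 and 30 and 19 at E12.5. A patch at Emx2 and Fam204a had 44 and 48 pairs at E16.5 and 44 and 46 at E12.5, so its extent was alike at both stages. Of the 12 largest patches, 2 had fewer pairs in both E16.5 libraries than in either E12.5 library. The one at Tbx3 had 16 and 11 pairs at E16.5 and 44 and 31 at E12.5, and one without a gene bin on chromosome 13 had 39 and 29 at E16.5 and 53 and 42 at E12.5. Very long interactions were also uneven along the genome: they made up 19.8% and 18.1% of the listed interactions of chromosome 12 at E16.5 and 17.0% and 18.9% at E12.5, but 5.99% and 5.65% of those of chromosome 11 at E16.5 and 2.67% and 2.89% at E12.5.

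Measured as shared over union, the very long pairs overlapped more within a stage than between stages. Of the 6490 pairs, 717 were listed in all 4 libraries, 683 in 3, 1728 in 2 and 3362 (51.8%) in 1. The 2 E16.5 libraries shared 2550 pairs, a Jaccard index (shared over union) of 0.428, and the 2 E12.5 libraries shared 926, an index of 0.403. Between the stages the index was 0.232 to 0.260 over the 4 library pairs. Within-stage overlap exceeded between-stage overlap by 0.172 on average (exact test over the 3 ways to pair the libraries, p = 0.333, the smallest it allows). The unequal list lengths limit the index between stages. Of its own list, E12.5 replicate 1 shared 53.1% with E12.5 replicate 2 but 72.7% and 65.9% with the E16.5 libraries. For E12.5 replicate 2 it was 62.6% with E12.5 replicate 1 but 76.7% and 71.2% with the E16.5 libraries. The E16.5 libraries shared 58.0% and 61.9% of their lists with each other and 25.6% to 28.8% with an E12.5 library. Over all distances within-stage indices were 0.405 at E16.5 and 0.379 at E12.5, a little below those of the very long class, whereas all 4 libraries listed 717 of the 6490 very long pairs, a smaller share than the 5502 of 45153 pairs (12.2%) at 110 to 690 kb.

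Most very long interactions of both E12.5 libraries were also listed at E16.5, and about as many of those of both E16.5 libraries were listed at E12.5 as were not. Of the 926 pairs listed in both E12.5 libraries, 77.4% were in both E16.5 libraries and 91.3% in at least 1, while of the 2550 pairs in both E16.5 libraries 28.1% were in both E12.5 libraries and 49.9% in at least 1. Pairs in both E16.5 libraries and neither E12.5 library numbered 1278, or 19.7% of the class, against 15.5% of the 110 to 690 kb class and 8.94% of contacts up to 100 kb. Pairs in both E12.5 libraries and neither E16.5 library numbered 81, or 1.25% of the class, against 1.84% of the 110 to 690 kb class and 2.38% of contacts up to 100 kb. Allowing a shift of 1 bin at each end, 81.2% of the pairs of E16.5 replicate 1 were found in E16.5 replicate 2. Of those of E12.5 replicate 1, 78.7% were found in E12.5 replicate 2. Some pairs that the other replicate did not list thus had a neighbouring pair there. Of the 1484 patches of touching pairs, however, 754 (50.8%) were in 1 library and 207 in all 4. An unlisted pair did not pass the authors' threshold and is not known to be uncontacted, and E16.5 lists were longer.

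**Figure D2:**
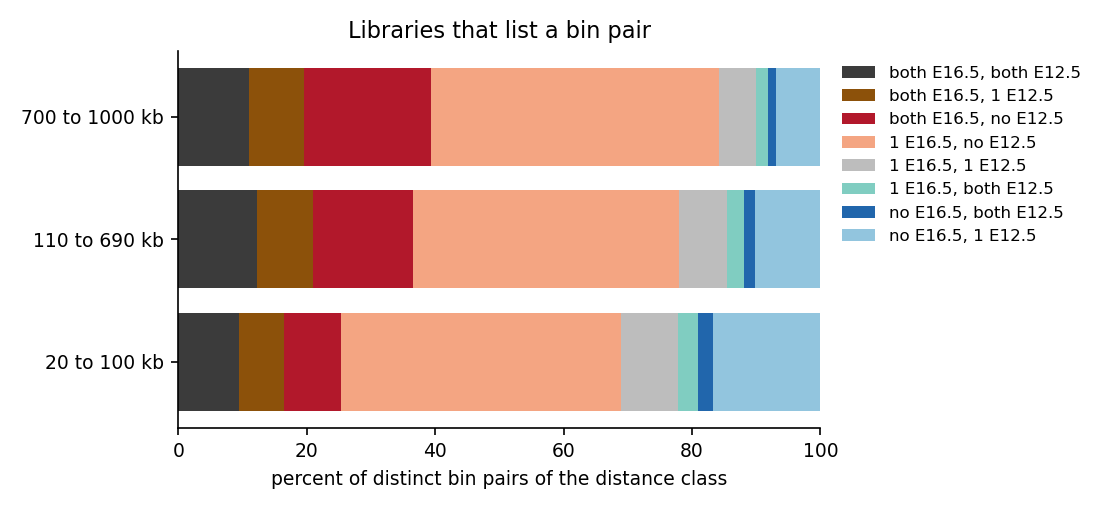
Bars show, for each distance class (rows), the percent of distinct bin pairs (x axis) by the E16.5 and E12.5 libraries that list them. The segment listed in both E16.5 libraries and in no E12.5 library is widest at 700 to 1000 kb, at 19.7%, and narrowest at 20 to 100 kb, at 8.94%.

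Recurring pairs were also the ones with more read pairs. The listing itself favours this, since it needs a low FDR and a count well above the expected count. The values below are therefore no separate support for recurrence. Pairs listed in all 4 libraries had a median of 25 and 22 read pairs in the E16.5 libraries and 16 and 16 in the E12.5 libraries. Pairs listed in 1 library had a median of 11 and 11 at E16.5 and 10 and 10 at E12.5. The median ratio of observed to expected counts of the pairs in all 4 libraries was 7.78 and 7.87 at E16.5 and 6.43 and 6.55 at E12.5, above the 5.06 to 5.29 of pairs listed once.

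Very long interactions had a gene bin at an end less often than shorter ones and crossed stretches with fewer genes per Mb. A gene bin was a 10 kb bin with the start of a protein-coding gene, or with either gene end where the promoter annotation gave no start. Gene bins lay at both ends of 419 pairs (6.46%), at 1 end of 3760 (57.9%) and at neither end of 2311 (35.6%). In the 110 to 690 kb class the shares were 9.45%, 59.6% and 31.0%. Genes between the ends were counted by their midpoints. By this count 2.96 genes per Mb lay between the ends, against 6.49 at 110 to 690 kb and 14.3 at 20 to 100 kb. The median number of genes between the ends was 1 in each of the 3 classes. At a distance of 800 kb a very long interaction spanned a median of 1 gene (234 pairs), whereas windows of that length anywhere on the autosomes spanned a median of 4. Ends without a gene start lay inside a gene in 35.5% of cases, fewer than the 41.3% of all such bins of the autosomes and the 52.1% in the 110 to 690 kb class. A total of 136 pairs (2.10%) lay wholly within 1 gene, led by Gpc6, a heparan sulfate proteoglycan (21 pairs), Npas3, a transcription factor (16 pairs), and Cdh13, a cadherin (10 pairs).

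Partners lay on either side of the gene. Where the gene's strand was known and 1 end was a gene bin, 54.4% and 54.0% of the partners lay downstream at E16.5 and 57.1% and 55.0% at E12.5, much as the 55.4% to 57.5% of the 110 to 690 kb class. Single genes were more one-sided: all 31 distinct partners of Pou3f3, all 31 of Nrp1 and all 31 of Prdm8 lay below the gene on the chromosome, and all 29 of Emx2 lay above it, while Sox11 had 20 below and 19 above.

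In the 717 pairs listed in all 4 libraries, the read-pair count could be compared as contact strength. Very long contacts of Pou3f3, Nfib, Id2 and Gria2 took more of the shared read pairs at E16.5, and contacts near Nr2f2 and at Ebf3, Emx2, Sox2 and Shh took fewer. The test was edgeR's quasi-likelihood test with Benjamini-Hochberg adjustment over the 6875 bin pairs of any distance listed in all 4 libraries, at an adjusted p under 0.05. It placed 81 of the 717 higher at E16.5 (11.3%), where the share called higher over all distances was 5.88%, and 16 lower (2.23%), where the share over all distances was 4.58%. Touching pairs are not independent, so these calls do not stand for as many separate contacts. Strength was not tested with touching pairs counted once. The median log2 change was 0.13 for the very long pairs and -0.01 for all. This split depended on the scaling. With each distance group normalized by itself, so that the class as a whole was centred, 37 were higher and 34 lower, with a median of -0.13. With the authors' expected counts as an offset 11 were higher and 0 lower, and DESeq2 called 13 higher and 0 lower. Leaving out E12.5 replicate 1 gave 42 higher and 6 lower, leaving out E12.5 replicate 2 gave 29 and 7, and leaving out E16.5 replicate 2 gave 74 and 5. As a sum, these contacts held 8.40% and 7.59% of the shared read pairs at E16.5 and 6.98% and 6.66% at E12.5. Contact in more cells and a stronger contact per cell cannot be told apart in whole tissue.

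**Figure D3:**
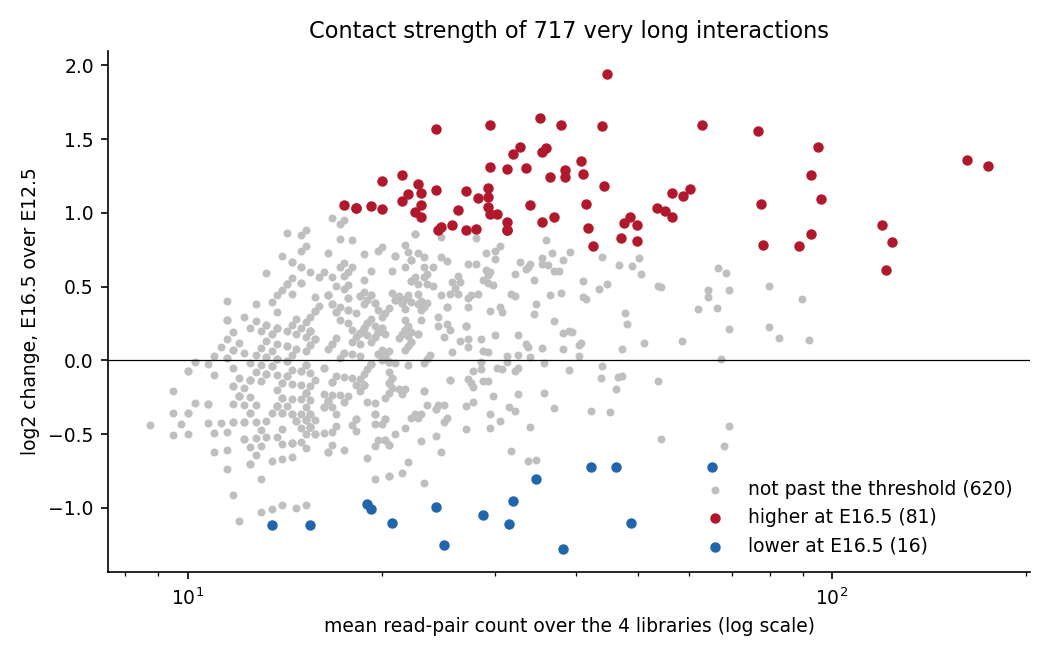
Each point is 1 of the 717 very long interactions listed in all 4 libraries, by its mean read-pair count (x axis, log scale) and its log2 change of E16.5 over E12.5 (y axis). The 81 pairs called higher lie mostly at counts above 20, the 16 called lower at counts between 10 and 70, and the other 620 in between.

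Pou3f3, a POU transcription factor of cortical neurons and their progenitors, had one of the 10 strongest very long contacts with a gene bin. Its bin (chr1:42690001-42700000, mm10) met a bin 880 kb below with 184 and 159 read pairs at E16.5 and 85 and 68 at E12.5, a log2 change of 0.80 (SE 0.21, adjusted p 0.0061, edgeR). The adjusted p was 0.055 without E12.5 replicate 1. With all 4 libraries the adjusted p was 0.078 by DESeq2, and 0.061 by edgeR with each distance group normalized by itself. In all, 3 of the 18 pairs of the Pou3f3 bin in all 4 libraries were called higher and 0 lower. A neighbouring bin 5.8 kb from the gene met a bin 940 kb away with 91 and 58 read pairs at E16.5 and 16 and 14 at E12.5. That was the call with the smallest p in the class, with a log2 change of 1.94 (SE 0.29, adjusted p 9.2e-06, edgeR).

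**Figure D4:**
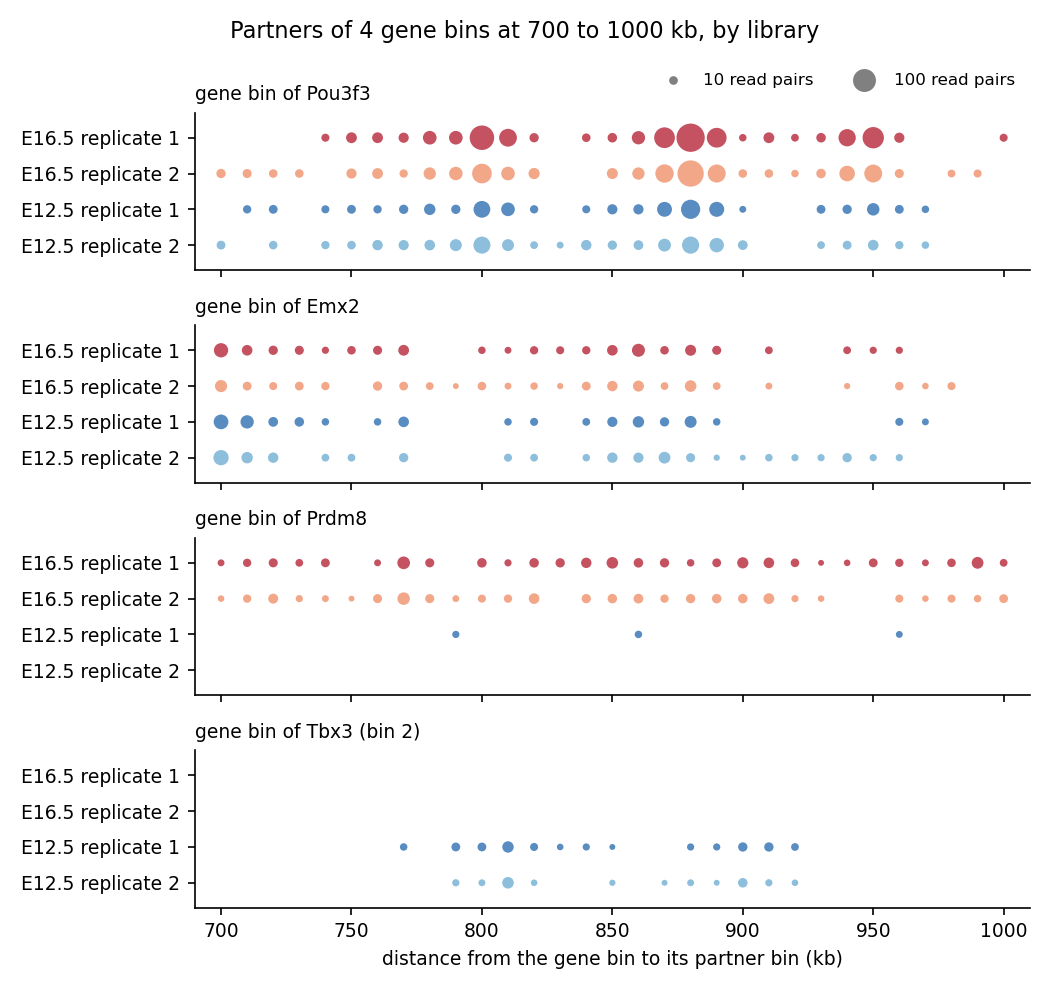
Each circle is a very long partner of a gene bin, at its distance from that bin (x axis, kb), with an area in proportion to its read-pair count, in 1 row per library with E16.5 above E12.5. Pou3f3 and Emx2 have partners at many of the same distances in all 4 libraries, Prdm8 has partners over the whole range at E16.5 and 3 at E12.5, and the second Tbx3 bin has partners at E12.5 and none at E16.5.

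Nfib, a nuclear factor I gene of neuronal and glial differentiation, had the largest change among the 10 strongest contacts. Its bin (chr4:82500001-82510000) met a bin 940 kb below, 117.1 kb from Mpdz, with 126 and 74 read pairs at E16.5 and 26 and 25 at E12.5, a log2 change of 1.60 (SE 0.26, adjusted p 3.4e-05, edgeR), and this call was kept under each of the 10 alternatives run. Sox11, a transcription factor of neuronal differentiation, met a bin 810 kb below, 50.2 kb from Cmpk2, with 132 and 113 read pairs at E16.5 and 60 and 51 at E12.5 (log2 change 0.78, SE 0.21, adjusted p 0.011, edgeR). Meis2, a homeobox gene of the striatal lineage, met a bin 760 kb away with 97 and 65 read pairs at E16.5 and 29 and 35 at E12.5 (log2 change 0.97, adjusted p 0.0058, edgeR). In these 3 cases both E16.5 counts exceeded both E12.5 counts. Trib2, a pseudokinase gene, met a bin inside Lpin1, a phosphatidate phosphatase gene, 720 kb away, and also rose. It had 85 and 74 read pairs at E16.5 and 27 and 34 at E12.5. By DESeq2 the adjusted p was 0.13 for Sox11, 0.13 for Meis2 and 0.095 for Trib2. The adjusted p by edgeR without E12.5 replicate 1 was 0.089 for Sox11, 0.15 for Meis2 and 0.14 for Trib2.

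The contacts of Sox6 and Mn1, also among the 10 strongest, did not pass the test. The Sox6 bin met a bin 820 kb below with 88 and 64 read pairs at E16.5 and 56 and 61 at E12.5, a log2 change of 0.01. Mn1, a transcriptional coregulator, met a bin 740 kb away with 100 and 78 read pairs at E16.5 and 42 and 57 at E12.5 (log2 change 0.48, adjusted p 0.19, edgeR). In both contacts the E16.5 counts lay above both E12.5 counts, by little for Sox6.

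By gene, 28 gene bins had at least 1 contact called higher and 4 had at least 1 called lower. These counts include touching pairs, which are not independent. Id2, an inhibitor of basic helix-loop-helix factors, had 4 of its 5 pairs called higher, some of them with adjoining bins. Gria2, an AMPA receptor subunit, had 3 of 3. Nfib had 2 of 2, Nrp1, a semaphorin receptor, 2 of 5 and Dlx5 2 of 7. Pairs without a gene bin at either end made up 253 of the 717 tested, 9 of the 16 called lower and 37 of the 81 called higher. Some of these ended in or close to genes named here. Among those called higher, ends lay inside Pou3f3 and 3.2 kb from Nfib. Among those called lower, ends lay inside Sox2 and 11.9 kb from Nr2f2. Another pair without a gene bin, on chromosome 3, lay far from named genes and had no gene between its ends. It was 980 kb long, with ends 593.0 kb from Ythdf3 and 148.4 kb from Cypt12. It had 161 and 119 read pairs at E16.5 and 55 and 36 at E12.5.

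Most contacts called lower at E16.5 lay at or near Nr2f2, Ebf3, Sox2, Emx2 and Shh. A bin 11.9 kb from Nr2f2, a nuclear receptor of ventral and caudal forebrain, met a bin 840 kb below with 35 and 18 read pairs at E16.5 and 54 and 46 at E12.5 (log2 change -1.28, SE 0.27, adjusted p 0.00076, edgeR). The Ebf3 bin met a bin 820 kb below with 42 and 31 read pairs at E16.5 and 61 and 61 at E12.5 (log2 change -1.10, SE 0.24, adjusted p 0.0014, edgeR). The bin inside Sox2, a transcription factor of neural progenitors, met a bin 750 kb above with 18 and 17 read pairs at E16.5 and 36 and 29 at E12.5 (log2 change -1.25, SE 0.27, adjusted p 0.0014, edgeR). In all 3 the E16.5 counts were below both E12.5 counts. Emx2, a homeobox gene that patterns the cortex, had 3 of its 14 pairs called lower and 0 higher, among them one of 710 kb with 26 and 18 read pairs at E16.5 and 41 and 30 at E12.5. Shh, which encodes a ventral signal, had 1 of 3 called lower, to a bin inside Lmbr1 810 kb away, with 17 and 13 read pairs at E16.5 and 29 and 18 at E12.5 (adjusted p 0.029, edgeR). Elsewhere, a contact of 710 kb on chromosome 9 with ends nearest Tbc1d2b and Zic4, a zinc finger gene, had 18 and 20 read pairs at E16.5 and 28 and 31 at E12.5 (log2 change -0.99, adjusted p 0.013, edgeR), and others lay on chromosome 13 near Mef2c. Without E12.5 replicate 1 the adjusted p by edgeR was 0.015 near Nr2f2, 0.012 at Ebf3, 0.056 at Sox2, 0.20 for the Emx2 contact of 710 kb, 0.49 at Shh and 0.056 near Zic4. No contact was called lower with DESeq2, which gave no adjusted p for some of them, or with the authors' expected count as an offset.

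Some strong pairs were listed in both libraries of 1 stage and in neither of the other. At E16.5 these included the Arpp21 bin with a bin 940 kb away (58 and 47 read pairs), the Syt4 bin, of a synaptotagmin gene, with a bin 910 kb away (40 and 40), the Prdm8 bin with a bin 770 kb away (37 and 36) and the Bcl6 bin, of a transcriptional repressor, with a bin inside Lpp 1000 kb away (28 and 31). At E12.5 they included the second Tbx3 bin with a bin 810 kb away (30 and 31 read pairs), the bin of Nkx2-2, a ventral patterning gene, with a bin 850 kb away and 2.9 kb from Foxa2 (21 and 19), the Nr2f2 bin with a bin 780 kb away (24 and 15), the bin of Kcnk13, a potassium channel gene, with a bin 880 kb away (20 and 16) and the Ebf3 bin with a bin 860 kb away (17 and 16). No count is given in the files for a library that does not list a pair, so these have no fold change.

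Pairs with a gene bin at both ends were fewer, and their read-pair counts were alike. Their median was 13 read pairs in each of the 4 libraries, where pairs with 1 gene bin had 14 and 13 at E16.5 and 13 and 13 at E12.5. Their median ratio of observed to expected counts was 4.71 and 5.01 at E16.5 and 4.78 and 5.17 at E12.5, where pairs with 1 gene bin had 5.41 and 5.81 at E16.5 and 5.59 and 5.93 at E12.5. The bin of Mmadhc, a cobalamin metabolism gene, met that of Rnd3, an atypical small GTPase of migrating neurons, 850 kb away with 40 and 40 read pairs at E16.5 and 28 and 35 at E12.5 (log2 change -0.02, adjusted p 0.98, edgeR). The Pax9 and Foxa1 bins, 850 kb apart, had 44 and 16 read pairs at E16.5 and 47 and 28 at E12.5, so the groups overlapped. The Rps24 and Zmiz1 bins, 960 kb apart with no gene midpoint between them, had 49 and 39 at E16.5 and 19 and 24 at E12.5. The bins of Cdca7 and of Sp9, a transcription factor of GABAergic neurons, 800 kb apart, had 38 and 37 at E16.5 and 21 and 19 at E12.5. In the last 2 pairs both E16.5 counts were higher, and neither passed the test (adjusted p 0.12 and 0.22, edgeR). The Ptp4a3 and Adgrb1 bins, 790 kb apart, had 37 and 46 at E16.5 and 15 in E12.5 replicate 2, while E12.5 replicate 1 did not list the pair.

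At least 1 very long interaction reached 1009 gene bins, with 1050 genes. Genes reached in both E16.5 libraries numbered 591 and in both E12.5 libraries 237, with 214 reached in all 4. Genes reached in both E16.5 libraries and no E12.5 library numbered 281, led by St3gal1, Arpp21 and Myt1l. The reverse pattern was seen for 3 genes, Col12a1, a collagen gene, Kcnk13 and Zfp521, a zinc finger gene, with 4 and 2, 1 and 2, and 1 and 2 very long interactions in the E12.5 libraries. These gene counts were not scaled for the longer E16.5 lists of very long interactions (4393 and 4120, against 1743 and 1479 at E12.5). The same split was not made for genes with interactions of any distance, so it shows nothing particular to this class. The numbers were concentrated: 281 gene bins had a single listing, 210 were reached in all 4 libraries, and the 10 leading bins held 9.93% of all gene-bin ends.

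The 10 gene bins with the most very long interactions over the 4 libraries included those of Sox11, Pou3f3, Myc, Emx2, Nrp1, Jun, Plpp3, Sox6 and Id2. Sox11 had 33 and 34 very long interactions at E16.5 and 15 and 17 at E12.5. Pou3f3 had 23 and 26 at E16.5 and 23 and 24 at E12.5, and Emx2 had 22 and 24 at E16.5 and 17 and 21 at E12.5. Pou3f3 and Emx2 thus had nearly as many at E12.5, although E12.5 lists were much shorter, and most of the interactions of Pou3f3 at any distance were very long, 60.5% and 65.0% at E16.5 and 54.8% and 61.5% at E12.5. Jun, a subunit of the AP-1 transcription factor, had 20 and 21 at E16.5 and 18 and 19 at E12.5, and Sox6, a transcription factor of interneurons, 20 and 23 at E16.5 and 14 and 19 at E12.5. Plpp3, a lipid phosphate phosphatase gene, had 25 and 24 at E16.5 and 14 and 14 at E12.5. The other leaders were further apart: Myc, a regulator of cell growth, had 31 and 37 at E16.5 and 8 and 9 at E12.5, Nrp1 28 and 27 at E16.5 and 13 and 11 at E12.5, and Id2 28 and 27 at E16.5 and 10 and 9 at E12.5.

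After scaling by the trimmed mean of M values (TMM), 43 gene bins had more very long interactions at E16.5, among them those of St3gal1, Arpp21, Prdm8 and Myt1l, and 4 had fewer, those of Tbx3, Ebf3, Pou3f3 and Sox2. The test was edgeR's quasi-likelihood test on the number of very long interactions at 226 gene bins with at least 10 listings summed over libraries, so that a change is relative to the other bins. It placed 43 bins higher at E16.5 (19.0%) and 4 lower (1.77%), where the same test on interactions of all distances placed 8.48% of 2312 gene bins higher and 2.47% lower. The median log2 change over the 226 bins was 0.31, also with bins at 0 in a stage taken at their bound, and 0.05 when scaled by library totals alone, under which 31 were higher and 10 lower. In raw numbers both E16.5 libraries exceeded both E12.5 libraries at 164 of the 226 bins (72.6%), and 29 of the 43 had 0 in both E12.5 libraries. The count of higher bins turned on the minimum: all 29 tested bins with 0 at E12.5 were called, 161 of the 226 had fewer than 10 listings at E12.5 and reached 10 only with E16.5, and these held 42 of the 43. With a minimum sum of 5 there were 0 higher and 0 lower (110 bins at an unadjusted p under 0.05, edgeR), and with 20 there were 21 and 7. The calls were fragile: without E16.5 replicate 1 or without E12.5 replicate 2 there were 0 higher and 0 lower, without E12.5 replicate 1 there were 4 and 1, without E16.5 replicate 2 there were 19 and 1, and DESeq2 placed 0 higher and 1 lower, with 70 bins at an unadjusted p under 0.05 in edgeR and 27 in DESeq2. Neighbouring partners of a bin are not independent, and with each patch of clustered interactions counted once 4 of 51 bins were higher and 0 lower.

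St3gal1, a sialyltransferase gene, and Arpp21 had the smallest p among the bins called higher. Both passed the minimum sum through E16.5 alone, and all 29 tested bins with 0 at E12.5 were called, so the calls add little to the numbers themselves. St3gal1 (chr15:67170001-67180000) had 16 and 22 very long interactions at E16.5 and 0 and 0 at E12.5, and Arpp21 (chr9:112230001-112240000) 16 and 20 at E16.5 and 0 and 0 at E12.5. Against a floor of 3 interactions over the stage, St3gal1 was at least 6.45-fold higher and Arpp21 at least 6.11-fold higher (adjusted p 2.5e-06 and 3.0e-06, edgeR). Arpp21 had no listed interaction of any distance at E12.5, against 37 and 44 at E16.5, while St3gal1 had 3 and 2 at E12.5, against 29 and 37 at E16.5. Prdm8 (chr5:98180001-98190000), needed for axon growth of cortical neurons, had 29 and 28 very long interactions at E16.5 and 3 and 0 at E12.5, a log2 change of 3.20 (SE 0.57, adjusted p 3.0e-06, edgeR). Its partners were spread over the whole range from 700 to 1000 kb, none with more than 37 read pairs. Without E12.5 replicate 1 the adjusted p by edgeR was 0.0040 for St3gal1, 0.0047 for Arpp21 and 8.5e-05 for Prdm8. Without E12.5 replicate 2 it was 0.36 for St3gal1, 0.31 for Arpp21 and 0.29 for Prdm8, in the same direction.

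Myt1l, Cdh4, Dab1, Cited2, Tafa5 and Zeb2 followed. Myt1l, a zinc finger factor of neuronal identity, had 2 such bins, one with 14 and 16 very long interactions at E16.5 and 0 and 0 at E12.5 (at least 5.09-fold higher) and one with 10 and 12 at E16.5 and 0 and 0 at E12.5 (at least 3.73-fold). Cdh4, a cadherin gene, had 14 and 11 at E16.5 and 0 and 0 at E12.5 (at least 4.24-fold). Dab1, the adaptor of reelin signalling, had 8 and 14 at E16.5 and 0 and 0 at E12.5 (at least 3.73-fold). In each, both E16.5 libraries exceeded a stage with none listed. Cited2, a transcriptional coregulator, had 13 and 17 at E16.5 and 0 and 1 at E12.5, Tafa5, a secreted neural factor, 12 and 8 at E16.5 and 0 and 0 at E12.5, and Zeb2, a transcription factor of cortical neurons and interneurons, 9 and 11 at E16.5 and 0 and 0 at E12.5. Without E12.5 replicate 1 the adjusted p by edgeR was 0.033 for the first of these Myt1l bins, 0.097 for Cited2 and 0.080 for the other Myt1l bin and for Cdh4, Dab1, Tafa5 and Zeb2. Myc was also called higher, with a log2 change of 1.02 (adjusted p 0.030, edgeR), which was -0.49 with clustered interactions counted once, and the adjusted p was 0.23 without E12.5 replicate 1.

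The 4 bins called lower were those of Tbx3, Ebf3, Pou3f3 and Sox2. These calls were not kept without E12.5 replicate 2 or without E16.5 replicate 1. With clustered interactions counted once, no bin was called lower. Tbx3, a T-box transcription factor, had no start in the promoter annotation, so its 2 bins are those of its 2 gene ends. The second (chr5:119680001-119690000) had 0 and 0 very long interactions at E16.5 and 13 and 11 at E12.5, at least 15.7-fold lower at E16.5 (adjusted p 1.2e-10, edgeR), and these were all of its listed interactions. This second bin passed the minimum sum through E12.5 alone. The first (chr5:119670001-119680000) had 15 and 11 at E16.5 and 12 and 11 at E12.5 and did not pass the test (adjusted p 0.17, edgeR). So 1 of the 2 adjoining bins had no very long interaction listed at E16.5, while the other did. Which of the 2 holds the gene start was not determined. Ebf3 had 10 and 5 at E16.5 and 12 and 11 at E12.5 (log2 change -1.57, SE 0.46, adjusted p 0.0091, edgeR). The Sox2 bin (chr3:34640001-34650000), at whose upper edge the gene start lies, had 7 and 3 at E16.5 and 9 and 7 at E12.5 (log2 change -1.62, SE 0.56, adjusted p 0.024, edgeR). Pou3f3 was lower relative to the other bins alone (log2 change -0.91, SE 0.29, adjusted p 0.015, edgeR), since its raw numbers were 23 and 26 at E16.5 and 23 and 24 at E12.5, and 3 of its contacts listed in all 4 libraries were stronger, as given above. Without E12.5 replicate 1 the adjusted p by edgeR was 4.1e-07 for the second Tbx3 bin, 0.13 for Ebf3, 0.15 for Sox2 and 0.080 for Pou3f3.

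**Figure D5:**
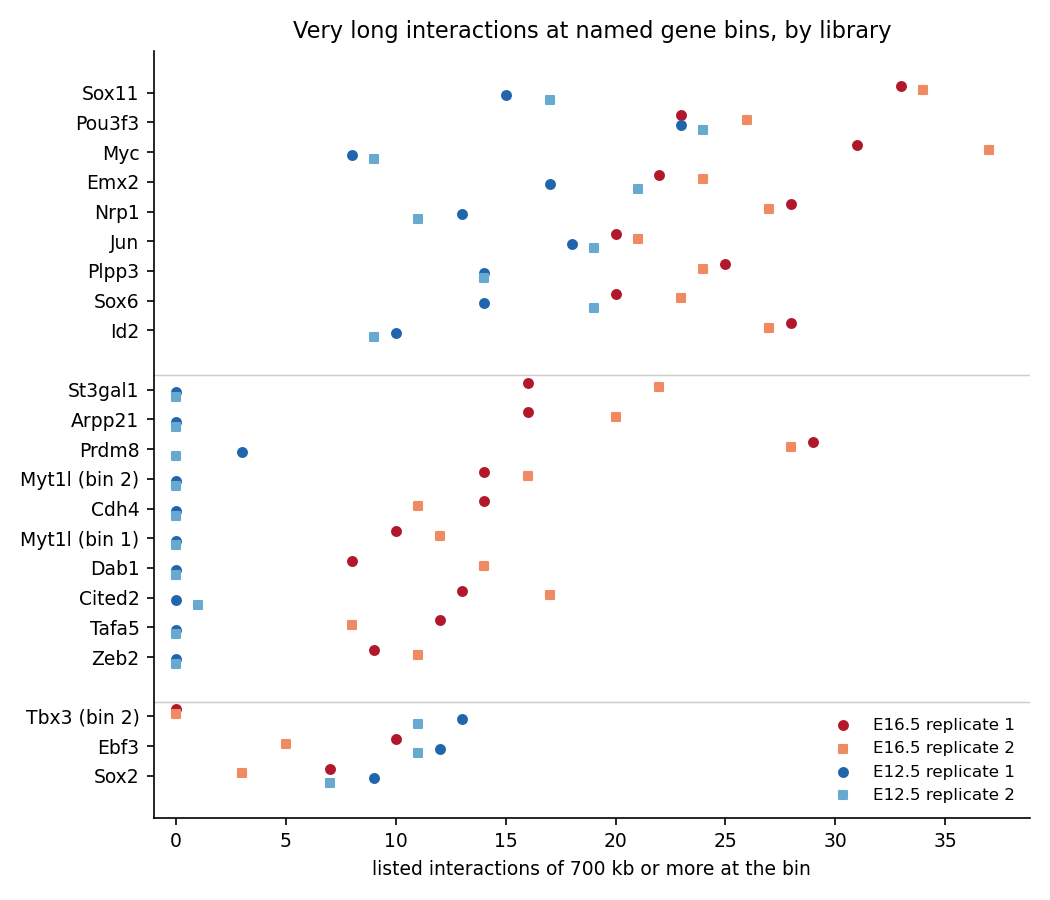
Points show the number of very long interactions (x axis) at named gene bins (rows) in each of the 4 libraries, with 9 of the 10 leading bins at the top, bins called higher at E16.5 in the middle and bins called lower at the bottom. Prdm8 has 29 and 28 at E16.5 against 3 and 0 at E12.5, and the second Tbx3 bin has 0 and 0 at E16.5 against 13 and 11 at E12.5.

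The bins were also counted by group of genes, where 19.0% higher and 1.77% lower was the share over all 226 bins and the same minimum sum applied. Transcription factors of progenitors and patterning held very long interactions at both stages. Of 33 such genes 17 had at least 1, with sums of 139 and 124 at E16.5 and 108 and 111 at E12.5. In the test 0 of 13 tested bins were higher and 1, Sox2, was lower, with a median log2 change of -0.75 against 0.31 over all 226 bins. Emx2 (log2 change -0.69, adjusted p 0.11) did not pass the test by edgeR, nor did Id4, which encodes an inhibitor of differentiation, with 16 and 16 at E16.5 and 7 and 8 at E12.5.

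Transcription factors of the neuronal lineage had 26 of 47 genes with a very long interaction, with sums of 237 and 227 at E16.5 and 95 and 95 at E12.5. Of 16 tested bins 5 were higher and 1, Pou3f3, was lower, with a median log2 change of 0.12 against 0.31 over all bins. All 5 had fewer than 10 listings at E12.5 and reached the minimum sum only with E16.5, so their count shows nothing about the group. The 5 were Zeb2, Myt1l, Bhlhe22, Lmo4 and Runx1t1: Lmo4, a LIM-only gene, had 19 and 17 at E16.5 and 2 and 1 at E12.5, Runx1t1, a corepressor gene, 9 and 11 at E16.5 and 0 and 0 at E12.5, and Bhlhe22, a cortical neuron factor, 10 and 5 at E16.5 and 0 and 1 at E12.5. Bcl11a, a zinc finger factor of cortical neurons, had 19 and 20 at E16.5 and 10 and 5 at E12.5 and did not pass the test (adjusted p 0.58, edgeR). The calls thus went both ways. Bhlhe22, Lmo4 and Runx1t1 had adjusted p of 0.34, 0.067 and 0.080 by edgeR without E12.5 replicate 1.

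Genes of synapses, receptors and ion channels had few very long interactions, almost all at E16.5. Of 43 such genes 8 had any, with sums of 49 and 60 at E16.5 and 5 and 3 at E12.5. Of 5 tested bins 4 were higher, where 19.0% of all bins were, but 3 of these, Gria1, Syt4 and Grin2b, had 0 at E12.5 and reached the minimum through E16.5 alone, so the count shows nothing about the group. Gria2 had 16 and 20 at E16.5 and 3 and 3 at E12.5 (log2 change 1.58, SE 0.55, adjusted p 0.025, edgeR), and the AMPA receptor gene Gria1 5 and 5 at E16.5 and 0 and 0 at E12.5. Syt4, a synaptotagmin gene, had 9 and 10 at E16.5 and 0 and 0 at E12.5, and Grin2b, an NMDA receptor subunit gene, 7 and 10 at E16.5 and 0 and 0 at E12.5. Without E12.5 replicate 1 the adjusted p by edgeR was 0.15 for Gria2, 0.080 for Syt4, 0.082 for Grin2b and 0.15 for Gria1. At all distances the group also had more listings at E16.5, with 255 and 289 at E16.5 and 31 and 25 at E12.5.

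Adhesion and axon guidance genes had 25 of 58 genes with a very long interaction, with sums of 167 and 184 at E16.5 and 52 and 50 at E12.5. Of 13 tested bins 3 were higher, those of Cdh4, Ephb1 and Flrt2, and 0 lower, a share near the 19.0% of all bins. All 3 reached the minimum sum only with E16.5. The median log2 change was 0.82. Ephb1, an ephrin receptor gene, had 14 and 7 at E16.5 and 0 and 1 at E12.5, and Flrt2, a guidance receptor ligand, 4 and 9 at E16.5 and 0 and 0 at E12.5. Ephb1 had an adjusted p of 0.21 and Flrt2 of 0.13 by edgeR without E12.5 replicate 1. The larger members did not pass the test. Epha4, an ephrin receptor gene, had 18 and 26 at E16.5 and 10 and 14 at E12.5, and Nrp2, a semaphorin receptor gene, 20 and 19 at E16.5 and 10 and 12 at E12.5.

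Genes of GABAergic neurons had 17 of 26 with a very long interaction, with sums of 143 and 114 at E16.5 and 67 and 59 at E12.5, and 0 of 9 tested bins passed the test in either direction (median log2 change -0.12). Dlx6 had 24 and 19 at E16.5 and 12 and 7 at E12.5 and Dlx5 23 and 20 at E16.5 and 11 and 5 at E12.5, both with the E16.5 numbers above the E12.5 numbers. Genes that pattern other parts of the embryo had 15 of 46, with sums of 69 and 59 at E16.5 and 45 and 36 at E12.5, and 0 of 7 tested bins passed (median log2 change -0.38), counting the first bin of Tbx3. Hoxd13 had 7 and 9 at E16.5 and 8 and 7 at E12.5. Of 14 glial genes Pdgfra alone had any, 13 and 6 at E16.5 and 9 and 6 at E12.5. Among the 25 markers of other cell types Foxc1, of meninges, had 5 and 1 at E16.5 and 3 and 2 at E12.5.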

How the data were processed

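Called interactions of 4 H3K4me3 PLAC-seq libraries were used, and the 12 other samples of the series were not used here. Per the submitters' processing notes, BWA, SAMtools and the mm10 build were used; the sources used here name neither versions nor the caller of interactions and its settings. Per the file headers, the deposited columns give the read-pair count of each pair of 10 kb bins, an expected count (used as a signal), an FDR (a q-value) and, for its cluster, a label, type and −log10 p. The values deposited by the authors were used without change. Each library was called separately, and the lists hold autosomal pairs 20 to 1000 kb apart with an FDR under 0.01 and a count at least 2 times the expected count. Listed read pairs per library set the precision of each count; total depth is unknown.

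Gene bins came from RefSeq starts on GRCm38.p6, and from both gene ends for the 4208 of 20665 autosomal protein-coding genes without a start in the promoter table. The members, gene lists and naming rules were chosen with earlier results of these data known. Genes and pairs were named by rank: the highest counts per recurrence pattern, the smallest p per direction, the largest sums, and the top and called members of each list. Some genes chosen by these rules are not reported here. The patches, the pairs inside genes and the chromosome 3 pair without gene bins were picked after their values were seen or from the ranked lists.

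Read-pair counts of the 6875 pairs listed in all 4 libraries, and numbers of very long interactions per gene bin with a sum of at least 10, were tested with edgeR 4.0.16 (TMM, robust quasi-likelihood) in R 4.3.3, with Benjamini-Hochberg adjustment at 0.05; both tests were tested on simulated data. Library values were compared by exact permutation. Alternatives were DESeq2 1.42.0, other scalings, filters and distance limits, and leaving out each library. Replicates of a stage differed by more than counting noise over pairs with a mean of at least 40 (chi-square per degree of freedom 1.75 at E16.5 and 1.30 at E12.5), so none was counted as a duplicate; over the very long pairs shared by replicates, whose counts are low, it was 0.92 at E16.5 and 0.70 at E12.5.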

Additional observations from a re-analysis of the deposited data

How the results depend on the processing

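The number, share and Jaccard index of very long interactions kept their direction under every alternative distance limit, FDR limit, list length and cluster setting run. They also kept it without each library. The ratio of numbers ran from 2.44 to 2.88 with 1 library left out and was 1.31 on lists of equal length. The difference of median read pairs (E16.5 minus E12.5, 0 as reported) was 0.5 with a minimum of 600 kb, 0.5 with clusters counted once and 4.5 on lists of equal length, where that of observed over expected was 1.33 (-0.18 as reported).

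Contact strength calls (81 higher, 16 lower) were 13 and 0 with DESeq2, 11 and 0 with the expected count as an offset and 37 and 34 with normalization within distance groups; leaving out each library gave 29 to 74 higher and 5 to 15 lower. Gene bin calls (43 higher, 4 lower) were 0 and 1 with DESeq2, 0 and 0 with a minimum sum of 5 (110 bins at an unadjusted p under 0.05), 21 and 7 with a minimum sum of 20, 4 and 0 with clusters counted once, 8 and 2 at an FDR under 0.0001, 62 and 10 from 600 kb, 28 and 2 from 800 kb, 31 and 10 without TMM and 0 to 19 and 0 to 1 with a library left out. The log2 change of Myc was -0.49 with clusters counted once. The causes were not tested. Low read-pair counts and an unknown depth limit what an unlisted pair shows.

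Replicate numbers did not pair the libraries (correlation of same-numbered deviations 0.13 for strength and -0.05 for gene bins). With the replicate number as a block, 95 contacts were higher and 20 lower, and 42 gene bins were higher and 4 lower.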

Other observations

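Some patches of very long interactions held several gene bins. A patch on chromosome 1 with the bins of Cadm3 and Igsf9, both immunoglobulin-type adhesion genes, had 40 and 28 pairs at E16.5 and 6 and 6 at E12.5, with 479 and 353 read pairs at E16.5 and 59 and 54 at E12.5. A patch on chromosome 4 with Pou3f1, a POU transcription factor gene, and Utp11, Rragc, Fhl3, Sf3a3 and Inpp5b had 39 and 37 pairs at E16.5 and 22 and 22 at E12.5. Other large patches were led by 1 gene bin each. The patch at Nfib had 44 and 33 pairs at E16.5 and 11 and 10 at E12.5, and the one at Mn1 had 54 and 45 at E16.5 and 36 and 26 at E12.5. These patches were picked after their sizes were seen, and their differences were not tested.

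The patch without a gene bin on chromosome 13, between Mef2c, a transcription factor gene of neurons, and Ccnh, held contacts that went both ways. A contact of 700 kb whose ends lay nearest Tmem161b and Ccnh had 153 and 90 read pairs at E16.5 and 38 and 26 at E12.5 (log2 change 1.55, adjusted p 2.8e-05, edgeR). A contact of 930 kb whose ends lay nearest Mef2c and Tmem161b had 33 and 14 read pairs at E16.5 and 37 and 42 at E12.5 (log2 change -1.11, adjusted p 0.0059, edgeR).

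Promoters of the gene bins called higher at E16.5 had a median of 25 CpGs per 300 bases (43 promoters of 32 bins, range 1 to 56), those of bins called lower 27 (3 promoters of 3 bins, range 18 to 46), and those of tested bins that did not pass 21 (151 promoters of 125 bins, range 0 to 54).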
